A study of Homo sapiens with 4 samples.

Results

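The genes described are 35 chaperone, heat shock and chaperonin genes, taken by name from a fixed list and found in 35 of 35 cases, each as 1 of the 60674 features of the count matrices. They fall by the place where their proteins work into 16 cytosolic genes, 4 mitochondrial genes, 6 genes of the endoplasmic reticulum (ER), the 8 subunit genes of the CCT chaperonin and 1 regulator, HSF1. Levels are in CPM, the number of unique molecular identifiers (UMIs, which stand for captured RNA molecules) of a gene per 1000000 UMIs of a library. A gene counted as measured with at least 20 CPM in at least 1 library, which 34 of the 35 reached and BAG3 did not.

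Human pluripotent stem cells (hPSC), labelled as the established embryonic stem cell line H9, carried a pooled lentiviral guide library with an EGFP reporter and a second lentivirus with Cas9 and mCherry, were sorted by fluorescence and recovered for 1 week. The hPSC transcriptome is 1 single-cell library of such cells, and the ectoderm transcriptome is 1 library of such cells after induction towards ectoderm. Each has an amplicon library that links cell barcodes to guides, and the guide tables name 113 target genes in hPSC and 80 in ectoderm. Cas9 and guides were thus present in each group, with no group free of them, and the length of the induction is not stated. With 1 library per group there is no spread between replicates, no test and no p-value. Cell state, guide pool and culture cannot be told apart in any difference between the libraries, and in summed counts fewer expressing cells and less RNA per cell cannot be told apart either.

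Chaperones bind unfolded or partly folded proteins and keep them from aggregating until they reach their shape. In the cytosol, J-domain proteins hand clients to HSP70, nucleotide exchange factors release them, and many pass on to HSP90 through the adaptor STIP1 or to the barrel-shaped CCT complex, which folds actin and tubulin. Mitochondria and the ER have HSP70 and HSP90 forms of their own, joined in mitochondria by the HSPD1 and HSPE1 folding chamber and in the ER by the lectin chaperones and disulfide isomerases. Heat shock factor 1, encoded by HSF1, raises the inducible cytosolic genes under stress, while the unfolded protein response raises the ER genes. Pluripotent stem cells are known for high levels of several of these proteins, among them subunits of CCT.

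The hPSC library held 15326 cells with 83246015 UMIs (median 4807.5 per cell) and the ectoderm library 16360 cells with 91249888 UMIs (median 4499), with a median mitochondrial share of 4.18% and 3.17% of UMIs. The libraries shared 78 cell barcodes, 0.509% of those of hPSC and 0.477% of those of ectoderm. Expression did not match the labelled line in 2 of 2 transcriptomes, so the line is H9 by its label only. Of 10 neural ectoderm progenitor markers 8 were measured, and 8 of these were at least 2-fold higher in the ectoderm library, with a summed level of 511 CPM in hPSC and 1936 CPM in ectoderm, while PAX6 (1.19 CPM) and HES5 (0.0767 CPM) were near 0 there. Of 10 pluripotent stem cell markers 9 were measured, and POU5F1, NANOG and TDGF1 were at least 2-fold lower in ectoderm while SOX2, which is on both lists, was at least 2-fold higher, so that the summed level was 3707 CPM in hPSC and 3338 CPM in ectoderm. Markers of surface ectoderm, neural crest, neurons, mesoderm, mesenchyme and endoderm summed to between 1.44 and 105 CPM per list and library, with the surface ectoderm genes KRT5 and TP63 at 0 UMIs in both libraries.

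The promoters are shown first because the inducible cytosolic genes and the ER genes are known to carry different control elements. RefSeq promoter windows on GRCh38.p14, from 250 bases before to 50 after each start, matched 31 of the 35 genes. Each was searched on both strands for GAANNTTC followed by NNGAA, which joins 3 units of the heat shock element recognised by heat shock factors, and for CCAAT and CCACG with 9 bases of any kind between them, the ER stress response element. The 3-unit element stood in the windows of 7 of the 31 genes against 0.608% of all 27305 genes with windows (0.490% of 35116 windows). The sequences of these 7 genes follow, 5′ to 3′ on the gene's strand, with the match in capitals and overlapping matches joined.
CHORDC1 (chr11:90223084-90223112, minus strand): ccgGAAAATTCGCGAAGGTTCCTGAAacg
DNAJA1 (chr9:33025268-33025296, plus strand): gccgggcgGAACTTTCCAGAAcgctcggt
DNAJB6 (chr7:157336865-157336893, plus strand): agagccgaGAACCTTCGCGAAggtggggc
HSP90AA1 (chr14:102087112-102087140, minus strand): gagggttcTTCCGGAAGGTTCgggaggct
HSP90AB1 (chr6:44247770-44247798, plus strand): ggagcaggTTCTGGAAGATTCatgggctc
HSP90AB1 (chr6:44247823-44247851, plus strand): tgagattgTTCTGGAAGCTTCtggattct
HSPA8 (chr11:123062346-123062374, minus strand): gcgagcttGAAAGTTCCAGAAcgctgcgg
HSPA8 (chr11:123062171-123062199, minus strand): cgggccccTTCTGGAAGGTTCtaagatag
HSPD1 (chr2:197500062-197500090, minus strand): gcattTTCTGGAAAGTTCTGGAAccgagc

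The stress-inducible HSP70 genes HSPA1A and HSPA1B held only the shorter form GAANNTTC, 2 facing units, which is contained in the longer element and stood in the windows of 14 of the 31 genes, against 8.21% of all genes (6.77% of windows). The stretches are shown because these near-identical genes had the widest ranges of the list over cell clusters in each library.
HSPA1A (chr6:31815426-31815455, plus strand): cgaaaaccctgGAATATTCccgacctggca
HSPA1B (chr6:31827622-31827651, plus strand): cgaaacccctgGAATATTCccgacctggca

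The ER stress response element stood in the windows of 4 of the 31 genes, all of them ER genes, against 0.0916% of all genes (0.0769% of windows).
HSPA5 (chr9:125241386-125241414, minus strand): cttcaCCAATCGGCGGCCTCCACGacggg
HSP90B1 (chr12:103930211-103930239, plus strand): cctgaCCAATCGGAAGGAGCCACGcttcg
HSP90B1 (chr12:103930316-103930344, plus strand): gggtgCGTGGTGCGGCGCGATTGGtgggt
CALR (chr19:12938379-12938407, plus strand): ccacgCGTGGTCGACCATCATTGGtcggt
CANX (chr5:179698773-179698801, plus strand): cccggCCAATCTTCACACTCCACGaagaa
A match is a description of letters and not a measured binding site. Only exact units were sought, so a window without a match is not shown to lack the element. The median log2 ratio of ectoderm over hPSC was -0.59 over the 7 genes with the 3-unit element (-1.08 to -0.14), -0.19 over the 4 with the ER element (-0.41 to 0.06) and -0.41 over the 20 matched genes with neither (-0.78 to -0.06). These ranges overlapped. The 20 are not free of heat shock elements: HSPA1A, HSPA1B, DNAJB1, HSPB1, CCT2 and TCP1 among them hold the shorter 2-unit form. HSPE1 is also among the 20, and the HSPD1 match lies within its annotated span.

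Nearly the whole list stood lower in the ectoderm library, by small amounts. The log2 ratio of ectoderm over hPSC was below 0 for 33 of the 34 measured genes, against 53.7% of all 6249 measured genes, and only CANX stood above 0. Its median was -0.39 over the list and -0.03 over all measured genes, whose interquartile range ran from -0.31 to 0.25. Summed over the 35 genes, the level was 18390 CPM in hPSC and 13755 CPM in ectoderm (log2 ratio -0.42). By the rule of size, a difference of at least 2-fold, 1 of the 34 was lower in ectoderm, against 4.03% of all measured genes, and 0 were higher, against 3.25%. At 1.5-fold, 9 of the 34 were lower, against 11.0%, and 0 were higher, against 8.90%. In the non-targeting cells of the 2 libraries alone, 2 genes were at least 2-fold lower, DNAJB6 (-1.23, -1.43 to -1.03) and HSPA4 (-1.06, -1.34 to -0.78). The share of all measured genes past 2-fold was not computed in those cells, which hold far fewer UMIs, so this count has no background. The whole counting interval lay below 0 for 34 of the 35 genes and above 0 for 1, against 47.4% and 41.0% of all measured genes, since at these depths very small ratios have intervals clear of 0. All intervals given here are exact 95% intervals that cover counting error only.

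**Figure D1:**
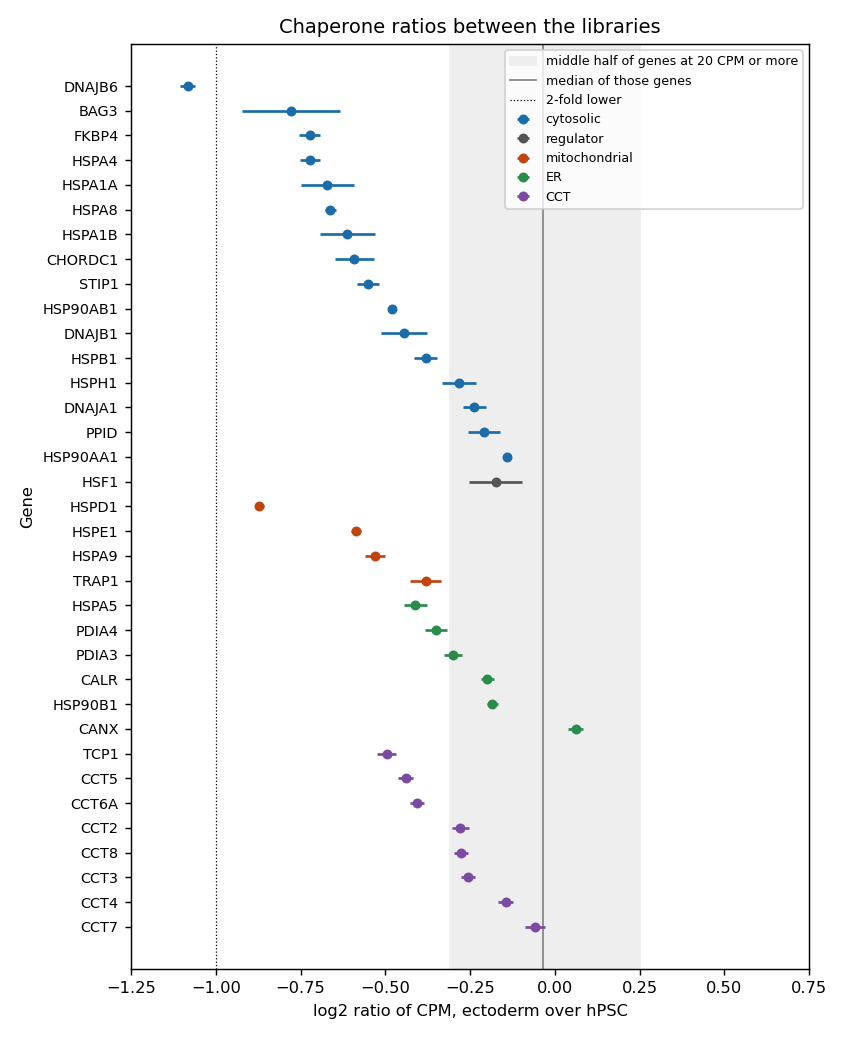
Log2 ratio of CPM, ectoderm over hPSC, for the 35 genes, coloured by compartment and sorted within it; bars are 95% counting intervals, and the grey band and line are the interquartile range and median of all measured genes. DNAJB6 alone lies past the dotted line of a 2-fold difference at -1.08, and CANX alone lies right of 0 at 0.06.

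The compartments did not stand equally low. The median log2 ratio was -0.55 over the 15 measured cytosolic genes, -0.56 over the 4 mitochondrial genes, -0.25 over the 6 ER genes and -0.28 over the 8 CCT genes. The genes at least 1.5-fold lower were 7 cytosolic genes and the mitochondrial HSPD1 and HSPE1, with 0 of the ER and 0 of the CCT genes among them. Sums, which a few abundant genes dominate, gave 10029 against 7409 CPM for the cytosolic genes (-0.44) and 2955 against 1811 CPM for the mitochondrial genes (-0.71). The ER sum was 2258 CPM in hPSC and 1976 CPM in ectoderm (-0.19), and the CCT sum was 3115 and 2530 CPM (-0.30). The ranges of single genes overlapped between all compartments, and whether the compartments differ was not tested.

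**Figure D2:**
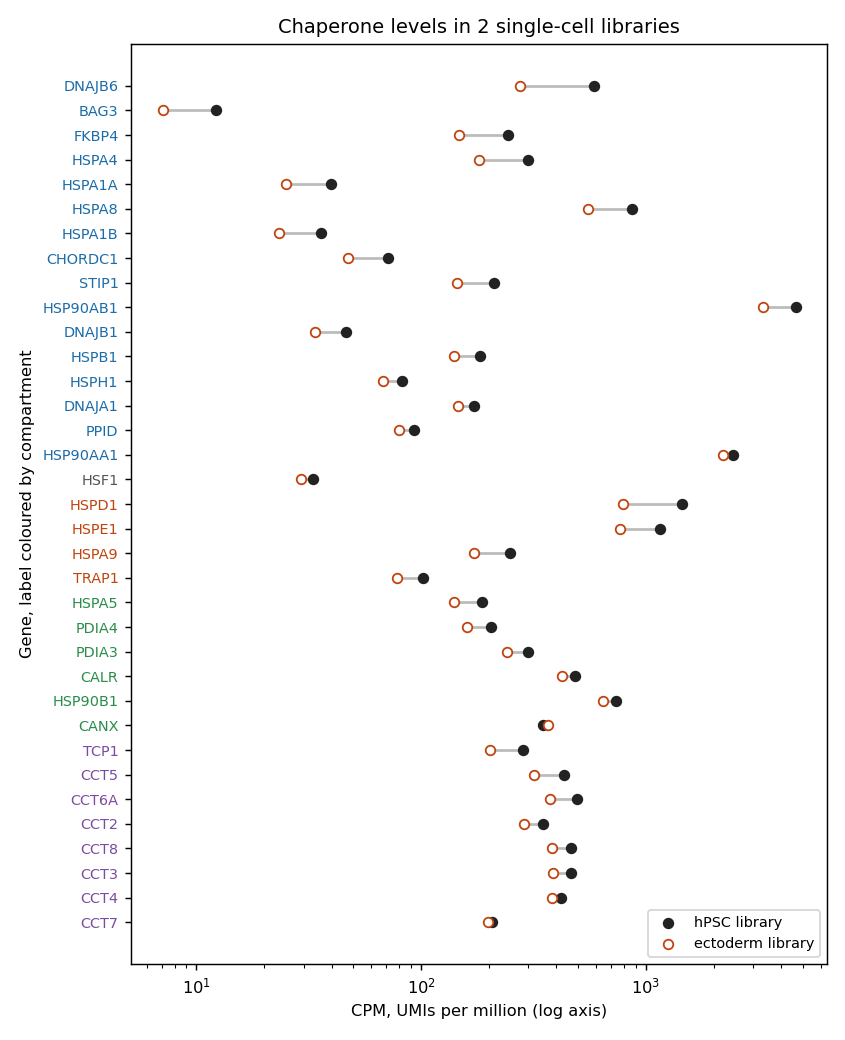
CPM on a log axis of each of the 35 genes in the hPSC library (filled) and the ectoderm library (open), with gene labels coloured by compartment as in the plot of ratios. The open circle lies left of the filled one for every gene but CANX, which stood at 350 CPM in the hPSC library and 365 CPM in ectoderm.

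Among the HSP70 genes, the constitutive and the stress-inducible forms were lower in ectoderm to a like extent. HSPA8, the constitutive cytosolic HSP70 that folds newly made proteins, stood at 871 CPM in the hPSC library and 550 CPM in ectoderm (-0.66, -0.68 to -0.65). HSPA1A, the stress-inducible HSP70 (chromosome 6, 31815464 to 31817946, plus strand, ENSG00000204389), stood at 39.8 and 25.0 CPM (-0.67, -0.75 to -0.59). HSPA1B, its neighbour (31827735 to 31830255), stood at 35.7 and 23.4 CPM (-0.61, -0.69 to -0.53). Coding sequences of these neighbours are 99.8% identical in the reference. Their transcripts after the stop codon, 264 and 379 bases long, were identical at 202 of 392 aligned positions (51.5%), with gaps counted as differences. That share is lowered by the difference in length and is higher where both have bases. A library read from the 3′ end can separate them in part. Their split is uncertain where reads fell in shared sequence. Their sum, 75.6 CPM in hPSC and 48.4 CPM in ectoderm (-0.64, -0.70 to -0.59), does not depend on the split. Reads left out of the counts for matching both genes, if any, would be missing from the sum as well. The ratio of this inducible sum to HSPA8 was 0.0867 (0.0845 to 0.0890) in hPSC and 0.0880 (0.0853 to 0.0907) in ectoderm, and these intervals overlapped.

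The 2 HSP110 proteins, which release nucleotide from HSP70, were lower to unequal extents. HSPA4 stood at 299 CPM in the hPSC library and 181 CPM in ectoderm (-0.72, -0.75 to -0.69). HSPH1, the heat-inducible form, stood at 82.0 and 67.4 CPM (-0.28, -0.33 to -0.23). Their ratio, HSPH1 over HSPA4, was 0.275 in hPSC (0.267 to 0.282) and 0.373 in ectoderm (0.362 to 0.384), apart by more than counting error. BAG3, an exchange factor of HSP70 in stress and autophagy, stood at 12.2 and 7.09 CPM (-0.78, -0.92 to -0.64), under the minimum in both libraries.

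DNAJB6 was the single gene of the list past 2-fold. This J-domain protein, known for holding back the aggregation of polyglutamine proteins (chromosome 7, 157335381 to 157417439, plus strand, ENSG00000105993), stood at 585.6 CPM in the hPSC library and 276.3 CPM in ectoderm (-1.08, -1.11 to -1.06). Among all measured genes 3.26% had a lower ratio. The other J-domain genes were nearer: DNAJA1 stood at 173 and 146 CPM (-0.24, -0.27 to -0.20). DNAJB1, the heat-inducible form, stood at 46.1 and 33.9 CPM (-0.44, -0.51 to -0.38). DNAJB1 shares 12686 bases with TECR on the opposite strand (74.2 and 75.2 CPM), and whether strand was used in the counting is not stated. HSPB1, a small heat shock protein that holds unfolded clients without ATP, stood at 182 and 140 CPM (-0.38, -0.42 to -0.35).

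The cytosolic HSP90 genes shifted in their proportion. HSP90AB1, the constitutive form, stood at 4647 CPM in the hPSC library and 3331 CPM in ectoderm (-0.48, -0.49 to -0.47). HSP90AA1, the inducible form, stood at 2438 and 2208 CPM (-0.14, -0.15 to -0.13), inside the interquartile range of all measured genes. The ratio of HSP90AA1 to HSP90AB1 was 0.525 in hPSC (0.522 to 0.527) and 0.663 in ectoderm (0.659 to 0.667). Among the 35 genes, 4 HSP90 partners stood lower by more than HSP90AA1 did, PPID by the least of the 4. FKBP4, an immunophilin of steroid receptor complexes, stood at 244 and 148 CPM (-0.72, -0.76 to -0.69). STIP1, which bridges HSP70 and HSP90, stood at 212 and 145 CPM (-0.55, -0.58 to -0.52). CHORDC1, another HSP90 partner, stood at 70.9 and 47.1 CPM (-0.59, -0.65 to -0.53). PPID, a cyclophilin of the same complexes, stood at 92.6 and 80.1 CPM (-0.21, -0.26 to -0.16), between the ratios of HSP90AA1 and HSP90AB1. HSF1 itself, the factor that drives the heat shock response, stood at 33.0 and 29.3 CPM (-0.18, -0.25 to -0.10), though its RNA does not show its activity, which is set largely on the protein.

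Immediate early genes, which can be raised when cells are detached, were also mostly lower in the ectoderm library. Of 10 such genes 6 were measured, 4 of them at least 2-fold lower in ectoderm, and the list summed to 379 CPM in hPSC and 221 CPM in ectoderm. IER3 stood at 59.1 and 6.81 CPM and JUN at 28.5 and 5.35 CPM, while IER2 stood at 201 and 137 CPM and EGR1 was higher in ectoderm, at 17.0 and 32.6 CPM. Over hPSC cell clusters 0, 1, 2 and 3 the sum was 374, 317, 403 and 401 CPM. HSPA1A stood there at 62.7, 34.9, 25.1 and 29.2 CPM. Over ectoderm clusters 0, 1 and 2 the sum was 219, 210 and 227 CPM, with HSPA1A at 18.6, 38.2 and 24.4 CPM. Clusters within a library do not show differences in handling between the libraries. The part of the immediate early genes in the ratios of HSPA1A, HSPA1B, DNAJB1 and BAG3 between the libraries was not tested.

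The mitochondrial genes were lower in ectoderm in 4 of 4 cases. HSPD1, the barrel of the mitochondrial chaperonin, stood at 1454 CPM in the hPSC library and 795 CPM in ectoderm (-0.87, -0.88 to -0.86), the second lowest ratio of the measured genes on the list. HSPE1, its lid, stood at 1152 and 767 CPM (-0.59, -0.60 to -0.57). These genes lie on opposite strands of chromosome 2, HSPD1 at 197486581 to 197516737 and HSPE1 at 197499994 to 197503457, so that all 3464 bases of HSPE1 lie within the annotated span of HSPD1, and reads there cannot be told apart without strand. Lid and barrel did not keep their proportion: HSPE1 over HSPD1 was 0.793 in hPSC (0.786 to 0.800) and 0.965 in ectoderm (0.955 to 0.975). HSPA9, the mitochondrial HSP70 that pulls proteins in through the inner membrane, stood at 248 and 171 CPM (-0.53, -0.56 to -0.50). TRAP1, the mitochondrial HSP90, stood at 102 and 78.1 CPM (-0.38, -0.43 to -0.34). Of 12 other mitochondrial chaperones and proteases 9 were measured, 7 of them below 0, with a median of -0.14 and 0 past 2-fold in either direction. The lowest were the exchange factor GRPEL1, at 80.6 and 42.3 CPM (-0.93), and the J-domain gene DNAJA3, at 35.1 and 22.2 CPM (-0.66). The highest were another J-domain gene, DNAJC19 (0.03), and YME1L1 (0.00). GRPEL2, like GRPEL1 an exchange factor, stood at 21.5 and 19.5 CPM (-0.14, -0.23 to -0.04).

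The ER genes were lower in 5 of 6 cases, by small amounts. HSPA5, the ER HSP70 also called BiP, stood at 186 CPM in the hPSC library and 139 CPM in ectoderm (-0.41, -0.45 to -0.38). HSP90B1, the ER HSP90, stood at 735 and 647 CPM (-0.18, -0.20 to -0.17). HSP90B1 over HSPA5 was 3.96 in hPSC (3.89 to 4.03) and 4.64 in ectoderm (4.55 to 4.73), so the ER HSP70 was the lower of the pair relative to hPSC, as in the cytosol, where HSPA8 stood lower than either HSP90 gene. The lectin chaperones, which hold glycoproteins while they fold, split in direction. CALR, the soluble form, stood at 485 and 422 CPM (-0.20, -0.22 to -0.18). CANX, the membrane form, stood at 350 and 365 CPM (0.06, 0.04 to 0.08), the only gene of the list above 0. In non-targeting cells alone CALR stood at 0.03 (-0.16 to 0.21) and CANX at -0.14 (-0.35 to 0.07). Both signs were thus reversed there, and both intervals held 0. The disulfide isomerases stood close to each other, PDIA3 at 298 and 242 CPM (-0.30, -0.33 to -0.27) and PDIA4 at 204 and 160 CPM (-0.35, -0.38 to -0.32).

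Other ER folding genes were similar in the middle and wider at the ends. Of 24, 17 were measured, 12 of them below 0, with a median of -0.21, 1 at least 2-fold lower and 0 at least 2-fold higher. SDF2L1, a partner of ER J-domain proteins, stood at 64.0 and 29.2 CPM (-1.13), and PPIB, the ER cyclophilin, at 399 and 223 CPM (-0.84). MESD, a chaperone of WNT co-receptors, stood at 61.9 and 73.3 CPM (0.24) and the ER J-domain gene DNAJB9 at 19.2 and 22.4 CPM (0.23). Of 9 regulators of the unfolded protein response 3 were measured, with XBP1 at 111 and 78.3 CPM (-0.50), ATF4 at 83.4 and 61.0 CPM (-0.45) and ATF6 at 23.1 and 22.2 CPM (-0.06, -0.15 to 0.03).

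The 8 CCT subunits, which assemble into rings with 1 copy of each, were lower in ectoderm in 8 of 8 cases but not by equal amounts. TCP1, the alpha subunit, had the lowest ratio, at 285 CPM in the hPSC library and 202 CPM in ectoderm (-0.50, -0.52 to -0.47). CCT7, the eta subunit, had the highest, at 207 and 198 CPM (-0.06, -0.09 to -0.03), and CCT4, the delta subunit, was next, at 421 and 381 CPM (-0.15, -0.17 to -0.12). The others lay between. CCT5 stood at 432 and 319 CPM (-0.44) and CCT6A at 494 and 373 CPM (-0.41). CCT2 stood at 347 and 286 CPM (-0.28), CCT8 at 465 and 384 CPM (-0.28) and CCT3 at 463 and 387 CPM (-0.26), and the counting intervals of these 3 ratios overlapped. TCP1 shares 558 bases with ACAT2 on the opposite strand (167 and 123 CPM), and reads there cannot be told apart without strand. Of 9 genes of prefoldin, which delivers clients to CCT, and of CCT partners, 8 were measured, 5 of them below 0, with a median of -0.07. They ran from PFDN2, at 571 and 357 CPM (-0.68), to PFDN5, at 578 and 712 CPM (0.30).

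The remaining pathway lists show how far these values are shared. Of 18 other HSP70 and HSP90 cochaperones 16 were measured, 13 of them below 0, with a median of -0.19. CDC37, which loads kinases onto HSP90, and AHSA1, which stimulates the HSP90 ATPase, were lowest (both -0.63), and ST13 (0.20) and BAG4 (0.21) were highest. Of 13 other cytosolic J-domain genes 6 were measured, with a median of -0.06, from DNAJA2 (-0.63) to DNAJC21 (0.32). HSPA2, an HSP70 best known from spermatogenesis, stood at 30.6 and 14.3 CPM (-1.10), while the ER proteins HYOU1 (-0.02) and HSPA13 (0.09) had intervals that held 0. Of the genes listed as other small heat shock genes or with the heat shock factors, only HSPB11 (-0.18) and HSBP1 (-0.07) were measured. HSBP1 is not itself a heat shock factor, and HSF2, HSF4 and HSF5 were under the minimum. The proteasome, which degrades what chaperones do not rescue, had a median close to that of the chaperones: 21 of 22 core and base genes were measured, 21 of them below 0, with a median of -0.38 and a range from PSMA5 (-0.68) to PSMB4 (-0.01). The summed level of these 22 genes was 5913 CPM in hPSC and 4443 CPM in ectoderm.

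The direction was also seen within classes of depth and of cell cycle RNA. Within cells of 1000 to 2999, 3000 to 4999, 5000 to 7999 and at least 8000 UMIs, the list had a median log2 ratio of -0.31, -0.32, -0.35 and -0.48, and 31, 34, 33 and 35 genes stood below 0. The median over all measured genes in the same classes was 0.005, 0.004, -0.038 and -0.068, so it also went down with depth. Summed levels of 10 S phase genes (802 and 873 CPM) and of 10 G2 and M phase genes (2255 and 2269 CPM) were close between the libraries. Within classes of cells with like amounts of G2 and M phase RNA, 33 or 34 genes stood below 0 in each class, and the median lay between -0.42 and -0.34. From the class with the least such RNA to the most, the ER median was -0.25, -0.28, -0.25 and -0.085. Medians of the other compartments stayed between -0.57 and -0.25. The share of all measured genes below 0 was not computed within the classes of depth or of G2 and M phase RNA.

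Within each library, HSPA1A, HSPA1B, DNAJB1 and BAG3, all of them stress-inducible, were higher in cells with more G2 and M phase RNA, and no other gene of the list reached 1.5-fold. Cells thinned to 2000 UMIs each, 15195 in hPSC and 16360 in ectoderm, were put into classes by their UMIs of the 10 G2 and M phase genes, and the untouched counts of the chaperones were summed per class. HSPA1A stood at 22.8, 31.9, 52.7 and 69.1 CPM in hPSC cells with 0 or 1, 2 to 4, 5 to 9 and at least 10 such UMIs. In ectoderm it stood at 17.4, 20.3, 30.4 and 41.1 CPM. It was thus 3.03-fold higher in the top than in the bottom class of hPSC (2.69 to 3.42) and 2.36-fold higher in ectoderm (2.04 to 2.74), and it was higher at each step in both libraries.

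HSPA1B, DNAJB1 and BAG3 did the same with smaller folds. HSPA1B was 2.27-fold higher in the top class of hPSC (2.02 to 2.56) and 2.02-fold in ectoderm (1.72 to 2.37). DNAJB1 was 1.83-fold higher in hPSC (1.64 to 2.04) and 1.51-fold in ectoderm (1.33 to 1.72). BAG3 was 1.81-fold higher in hPSC (1.46 to 2.25) and 1.59-fold in ectoderm (1.20 to 2.11). These were the only genes of the list at least 1.5-fold higher in the top class, the same 4 in each library. Without BAG3, which is under the 20 CPM minimum, they were 3 of 34, against 3.30% of all measured genes in hPSC and 2.50% in ectoderm. At 1.5-fold, 0 of 34 were lower in either library, against 1.11% and 0.978%. With the top class starting at 5 UMIs instead, DNAJB1 and BAG3 in ectoderm stood at 1.34-fold and 1.39-fold, under 1.5-fold, while HSPA1A stood at 2.54-fold in hPSC and 1.91-fold in ectoderm.

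Other heat-inducible genes differed less. HSP90AA1, the inducible HSP90, was at 0.952 of its bottom class in the top class of hPSC (0.938 to 0.967) and at 0.984 in ectoderm (0.969 to 1.00). DNAJA1 was 1.35-fold higher in hPSC (1.28 to 1.43) and 1.31-fold in ectoderm (1.23 to 1.39), STIP1 1.20-fold and 1.24-fold, and CHORDC1 1.20-fold and 1.23-fold. HSPH1 was 1.06-fold in hPSC (0.975 to 1.15) and 1.22-fold in ectoderm (1.12 to 1.34). HSPB1, in contrast, was at 0.814 of its bottom class in the top class of hPSC (0.769 to 0.861) and at 0.797 in ectoderm (0.746 to 0.850). HSP90AB1 was at 0.880 and 0.906, and HSPD1 at 0.865 and 0.882. HSPA8 was at 0.995 in hPSC (0.970 to 1.02) and at 1.10 in ectoderm (1.07 to 1.14), and HSPA5 at 0.857 (0.809 to 0.908) and 1.13 (1.06 to 1.20), on opposite sides of 1 in the 2 libraries. The 8 CCT genes stayed between 0.931 and 1.15 in both. The median fold over the 35 genes was 0.995 in hPSC and 1.02 in ectoderm.

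**Figure D3:**
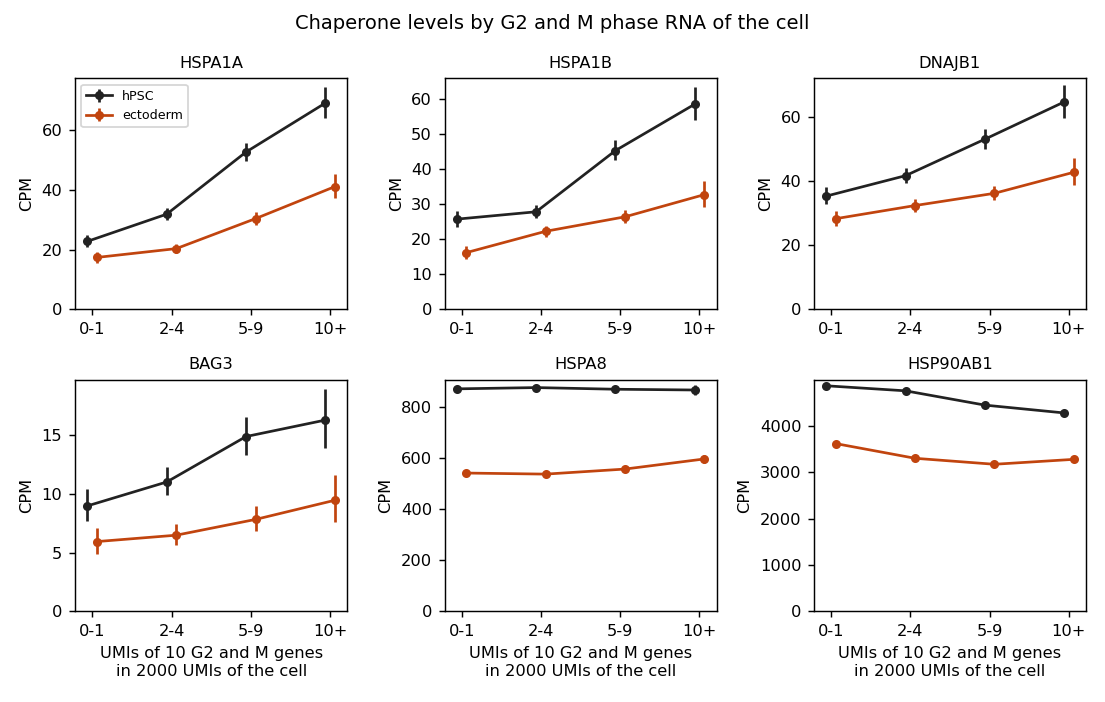
CPM of 6 of the genes in cells grouped by their UMIs of 10 G2 and M phase genes, for the hPSC library (black) and the ectoderm library (orange), with 95% counting intervals; axes start at 0. HSPA1A, HSPA1B, DNAJB1 and BAG3 climb with the class in both libraries, HSPA1A from 22.8 to 69.1 CPM in hPSC, while HSPA8 and HSP90AB1 stay nearly level.

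The classes also differed in depth, with a median of 4368 UMIs per cell in the bottom and 6160 in the top class of hPSC, and 3622.5 and 5118 in ectoderm, and the part of depth in these folds was not tested. Classes by the 10 S phase genes, from 0 to at least 5 thinned UMIs, went the other way for the inducible pair in hPSC, with HSPA1A at 0.683 (0.535 to 0.861) and HSPA1B at 0.646 (0.493 to 0.834) in the top against the bottom class. In ectoderm these values were 0.814 (0.640 to 1.02) and 0.914 (0.714 to 1.16), with intervals that held 1. DNAJB1 and BAG3 were not lower in the top S phase class. DNAJB1 was at 1.09 (0.898 to 1.31) in hPSC and 1.31 (1.09 to 1.57) in ectoderm. BAG3 was at 1.13 (0.787 to 1.60) in hPSC and 1.02 (0.647 to 1.56) in ectoderm. The G2 and M phase genes were also lower in higher S phase classes, from 2518 to 1689 CPM in hPSC and from 2475 to 1702 CPM in ectoderm. The sum over the 35 genes was 18268 CPM in the bottom and 18956 CPM in the top S phase class of hPSC, and 13527 and 14560 CPM in ectoderm. The lower level of HSPA1A in ectoderm held in each G2 and M class, with log2 ratios of -0.39, -0.65, -0.79 and -0.75 from the bottom to the top.

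Over clusters made without the 35 genes, the same 4 genes had the widest ranges in both libraries. hPSC cells formed 4 clusters and ectoderm cells 3, which are given by number. HSPA1A ran from 25.1 CPM in hPSC cluster 2 to 62.7 CPM in cluster 0, the cluster with the most G2 and M phase RNA (4161 CPM), a 2.50-fold range, and from 18.6 to 38.2 CPM in ectoderm, where cluster 1 (4285 CPM of G2 and M phase RNA) was highest. HSPA1B ranged 2.15-fold and 1.83-fold, DNAJB1 1.70-fold and 1.35-fold, and BAG3 1.65-fold and 1.77-fold. DNAJB1 was lowest in hPSC cluster 1 (35.3 CPM), although that cluster held more G2 and M phase RNA (2069 CPM) than clusters 2 and 3. HSPA5 ranged 1.47-fold and HSPH1 1.45-fold over the hPSC clusters, highest in cluster 1 in both cases. No CCT gene ranged more than 1.17-fold over the clusters of either library. The sum over the list ran from 17605 to 19001 CPM over the hPSC clusters and from 12916 to 14629 CPM over the ectoderm clusters, so the highest ectoderm cluster stood below the lowest hPSC cluster. Ectoderm cluster 2, the lowest, had a median of 7758 UMIs per cell and a mitochondrial share of 2.66%, against 3596 UMIs and 3.63% in cluster 0, the highest. The part of depth in that difference was not tested.

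Across single cells HSP90AA1 and HSP90AB1, which also had the highest means, had the highest variance over mean. In cells thinned to 2000 UMIs, variance over mean, which is 1 for pure counting noise, was 1.42 for HSP90AA1 in hPSC and 1.60 in ectoderm. HSP90AB1 had 1.30 and 1.39. HSP90B1 had 1.13 and 1.18, and HSPD1 had 1.15 in hPSC and 1.09 in ectoderm, while the mitochondrial HSP90 TRAP1 had 1.01 and 0.997. HSPA1A had 1.05 and 1.02 at means of 0.0757 and 0.0493 UMIs per cell, so at this depth its spread between single cells was close to counting noise. The 8 CCT genes had values from 0.990 to 1.04 in both libraries. The measure grows with the mean for a fixed relative spread, so values of genes at different means are not on 1 scale.

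**Figure D4:**
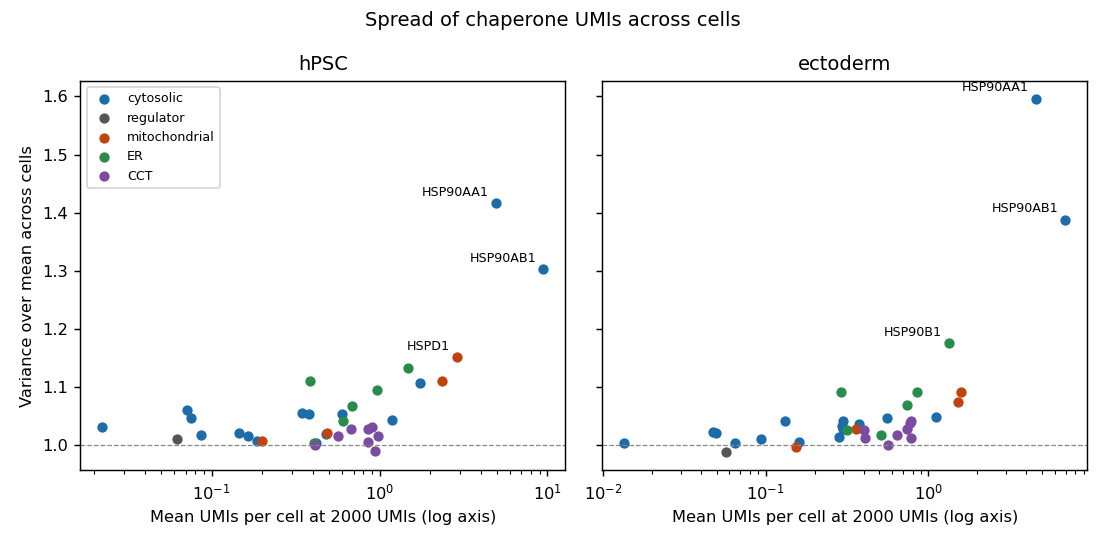
Variance over mean of UMIs per cell against the mean (log axis), 1 point per gene, coloured by compartment, in cells thinned to 2000 UMIs in each library; the dashed line at 1 is pure counting noise and the 3 highest genes are named. HSP90AA1 and HSP90AB1 stand above the other genes in both libraries, at 1.42 and 1.30 in hPSC and 1.60 and 1.39 in ectoderm.

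Guides let the list be read by target gene, in cells with exactly 1 guide at 20 or more guide UMIs. These were 2915 cells in hPSC, 212 of them non-targeting, and 3686 in ectoderm, 159 of them non-targeting. At least 50 cells were reached by 8 targets in hPSC and 28 in ectoderm. Compartment sums stayed within 0.19 of non-targeting cells on the log2 scale, in either direction. In hPSC, the cytosolic sum ran from COA3 (-0.07, -0.13 to -0.01) to CMBL (0.04, -0.01 to 0.09), the mitochondrial sum from ZYX (-0.11, -0.21 to -0.00) to SH3GL1 (0.03, -0.06 to 0.12) and the ER sum from ZYX (-0.07) to COA3 (0.10). In ectoderm, the cytosolic sum ran from MDC1 (-0.10, -0.16 to -0.04) to GPT2 (0.11, 0.05 to 0.17) and the mitochondrial sum from HACL1 (-0.19, -0.33 to -0.05) to GNL2 (0.06, -0.06 to 0.19). The ER sum there ran from ALDH4A1 (-0.17, -0.29 to -0.06) to PMPCA (0.15, 0.02 to 0.28), and the CCT sum from ALDH4A1 (-0.12, -0.22 to -0.01) to GPT2 (0.11, 0.01 to 0.22). These are the ends of many values, named for being so, and each target is 1 set of cells in 1 culture.

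**Figure D5:**
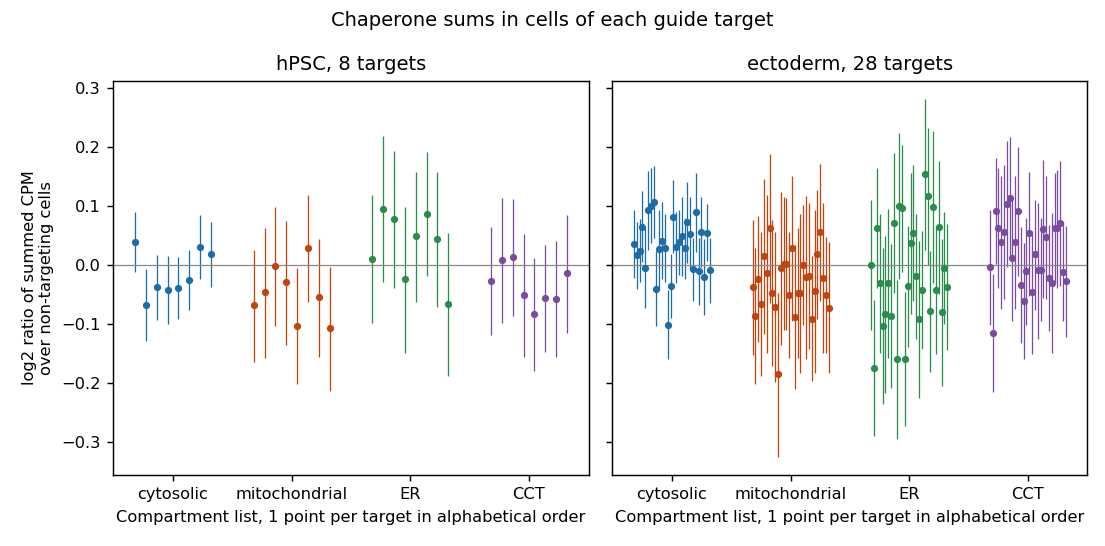
Log2 ratio of each compartment's summed CPM in cells of a guide target over non-targeting cells of the same library, 1 point per target with at least 50 cells (8 in hPSC, 28 in ectoderm), with 95% counting intervals. Points lie between -0.19 and 0.15, and most intervals hold 0.

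Of the 35 genes, 2 were themselves targets, both in hPSC and in few cells. CHORDC1 RNA gave 7 UMIs in 17 cells with CHORDC1 guides, where non-targeting cells predict 5.92. DNAJB6 RNA gave 16 UMIs in 3 cells with DNAJB6 guides, where 11.7 are predicted. Among targets from the pathway lists, AHSA1 gave 8 UMIs in 20 cells (13.7 predicted), PSMC6 gave 17 in 24 cells (16.6 predicted), SUGT1 gave 1 in 1 cell (0.733 predicted) and MANF, the only such target in ectoderm, gave 43 in 76 cells (45.7 predicted). The interval of the ratio held 0 on the log2 scale for each of these 6 genes, so no loss of RNA was detectable at this depth. RNA can persist after a Cas9 cut, so these counts do not show whether the protein was lost.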

How the data were processed

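The deposited matrices are raw UMI counts that the authors produced with STARsolo and STAR against GRCh38, as listed in the submitters' processing notes; tool versions, gene annotation and the use of strand are not stated there. In the deposited amplicon tables each line is a read with its cell and guide barcodes and the guide assigned by the authors, and the mismatch columns are counts of bases. The labels name version 2 of the 10x 3′ chemistry, whereas amplicon read 1 had 28 bases, as in later versions. The hPSC amplicon table held 1048575 reads, the row limit of a spreadsheet, and may be part of a longer table.

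Cells needed 1000 UMIs, 500 genes and a mitochondrial share of 20% or less, which kept, 15326 of 15333 barcodes in hPSC and 16360 of 16360 in ectoderm. No doublet caller was run and doublets stayed in. Counts were summed per library and scaled to CPM. Log2 ratios have exact conditional binomial 95% intervals and sums of counts exact Poisson intervals, for counting error only; UMIs are taken as molecules. No test was made, because each group is 1 library. The ratio, its interval and the 2-fold rule were run on simulated counts with counting noise only, which is what the intervals assume. That run holds no variation between cultures, and the other steps were not simulated. Each library was clustered alone with the 35 genes left out of 2000 variable genes, with 30 principal components, 15 neighbours and Leiden resolution 0.5 (scanpy 1.11.5, leidenalg 0.10.2). Gene positions are from GENCODE release 29, and promoter windows from RefSeq; identities were computed with Biopython 1.88. Symbols with more than 1 row were left out of the lists.

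The 35 genes, the lists and the rules were chosen with earlier results of these data known, and the 2 cell cycle lists were added during the analysis. All 35 genes are reported. Of each pathway list, up to 2 genes from each end of the measured ratios are named, and of the targets the ends for each compartment and any target on a list, except the CCT sum in hPSC, whose ends are not reported here; other named genes were chosen after their values were seen. Alternatives changed the scaling, the denominator, the cells, the weights, the depth, the fold, the filter, the guide threshold and the cluster resolution. The protein sequences of the genes were not used here.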

Additional observations from a re-analysis of the deposited data

How the results depend on the processing

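No paired analysis was possible because each group is 1 library. All 35 genes kept the sign of their ratio under 5 alternatives run on cells or scaling, and 2 (CALR and CANX) changed it in non-targeting cells alone. With median-of-ratios scaling, which puts the median of all measured genes at 0.00, the medians were -0.36 over all 34 genes, -0.52 cytosolic, -0.52 mitochondrial, -0.21 ER and -0.24 CCT. Without mitochondrial and ribosomal UMIs they were -0.36, -0.52, -0.53, -0.22 and -0.24. In non-targeting cells the cytosolic median was -0.67, the mitochondrial -0.51, the ER -0.22 and the CCT -0.32. In thinned cells the mitochondrial median was -0.52 and the ER median -0.21, and with each cell weighted equally the ER median was -0.22. The count of genes at least 2-fold lower was 1, but 2 in non-targeting cells, where no share over all genes was computed. At 1.5-fold it was 9, against 11.0% of all measured genes, and 0 genes were at least 2-fold higher under all 8 settings run. At Leiden resolution 1.0, the highest cluster over the lowest was 1.17 for the cytosolic, 1.11 for the ER and 1.09 for the CCT sum in hPSC. In ectoderm it was 1.62 cytosolic, 1.18 mitochondrial, 1.32 ER and 1.33 CCT; a cluster of 497 cells was lowest for the cytosolic and CCT sums, and other clusters were lowest for the mitochondrial and ER sums. The cause of these shifts was not tested. Depth limits the rarest genes most: BAG3 rests on 1013 UMIs in hPSC and 647 in ectoderm, and few UMIs of a gene in target cells show only large differences.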

Other observations

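The cells of the ectoderm library were also described by their RNA of the pluripotency gene POU5F1. Summed over the 35 genes, the level was 13711 CPM in ectoderm cells with 0 thinned UMIs of POU5F1 and 13997 CPM in cells with at least 3. In hPSC the level was 18371 and 18416 CPM in the same classes. At 485 CPM in ectoderm, POU5F1 gave few UMIs per thinned cell, so counting noise also sorted cells into these classes. The values therefore cannot show whether ectoderm cells with more POU5F1 RNA differ in chaperone RNA.

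At the finer cluster resolution, ectoderm cluster 8, with 497 cells, held 5529 CPM of the cytosolic genes and 2036 CPM of the CCT genes, the lowest of its library, at a median of 4175 UMIs per cell and a mitochondrial share of 5.24%. Its mitochondrial chaperones stood at 1755 CPM and its ER chaperones at 1734 CPM. A cluster of 265 cells, cluster 7, had a mitochondrial share of 0.496% and 13353 CPM over the list.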
